A study of Mus musculus with 12 samples.

Results

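The genes described here are 6 carbonic anhydrases, *Car2*, *Car4*, *Car8*, *Car9*, *Car12* and *Car14*, and the sodium-bicarbonate cotransporter gene *Slc4a4*. They were chosen by symbol and are 7 of the 38924 gene identifiers in the count tables. Carbonic anhydrases interconvert CO2 and bicarbonate plus a proton. Cells that ferment glucose export acid, and membrane-bound carbonic anhydrases at the cell surface, together with bicarbonate transporters, are known to keep the cytoplasm from acidifying while the extracellular space becomes acidic. In the pancreas, carbonic anhydrase 2 and SLC4A4 are best known from the bicarbonate secretion of duct cells, and the genes of carbonic anhydrases 9 and 12 are known targets of the hypoxia-inducible factors (HIF).

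RNA was measured in 12 pancreatic neuroendocrine tumors (PanNETs) of RIP1Tag2 mice on a C57Bl6 background, in which the rat insulin promoter drives the SV40 T antigens in beta cells. All mice carried this transgene, and treatment lasted 4 days from 15.5 weeks of age. The groups were 4 tumors from saline-treated control mice, 4 from mice given sunitinib, which inhibits VEGF and PDGF receptors, and 4 from mice given rapamycin plus sunitinib (R+S). Rapamycin inhibits mTOR. No group received rapamycin alone, and doses are not in the labels.

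The number of counted reads ran from 31872342 to 44215054 over the 12 tumors. Tumors are named by the numbers in their labels. A label prefix was shared by all 4 control tumors, by 3 of the 4 sunitinib-treated and by 2 of the 4 R+S-treated tumors, and no prefix occurred in more than 1 group. The labels do not say whether it stands for a mouse, so the 4 tumors of a group may not be independent, and the p-values measure only the spread between these tumors. Beta-cell transcripts were abundant in 11 tumors, where 12 beta-cell markers summed to between 31800 and 77100 normalized CPM (reads scaled to a common library size). Sunitinib-treated tumor 6 stood apart, with a sum of 2020, and for the tested genes of the 7 the differences from or to sunitinib-treated tumors are given with and without it. Acinar transcripts separated both treated groups from the controls: the sum of 28 markers was 42.6 to 152 CPM in the controls, 13300 to 48400 with sunitinib and 3550 to 19900 with R+S. By the test described below, 26 of the 28 were called higher in each treated group, beside 1.93% and 1.55% of all tested genes. Control tumors had 20 to 26 of these markers with at least 1 read, and treated tumors had all 28. In bulk tumor RNA, fewer cells of a type and less RNA per cell cannot be told apart.

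The promoter windows show what is near the start sites of these genes. The HIF binding core is usually written as ACGTG or GCGTG. RefSeq windows from 250 bases before to 50 bases after a start site (GRCm38.p6) were matched for 5 of the 7 genes, *Car4*, *Car9*, *Car12*, *Car14* and *Slc4a4*. Both motifs were searched on both strands, and they do not overlap each other in the windows shown. Stretches of 30 bases are given for *Car9*, on which the comparisons turn, and for *Car14* and *Car12*, the other surface enzymes of its kind, with a match in capitals. CACGT is ACGTG read on the opposite strand.
Car9, chr4:43506996-43507025, plus strand, up to the base before the start site: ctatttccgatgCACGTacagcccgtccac
Car14, chr3:95904686-95904715, minus strand, up to the base before the start site: agcccaggcaccacccccctcctCACGTac
Car12, chr9:66713656-66713685, plus strand, up to the base before the start site: ctcctgcctgatgacatcatgtttagggtt
The match of *Car9* begins 18 bases before the RefSeq start site, at position 43507008 of chromosome 4, and lies in the first exon of a longer GENCODE transcript of *Car9* that begins at 43506966. The match of *Car14*, at 95904688 to 95904692 of chromosome 3, begins 7 bases before its RefSeq start site. On the minus strand, all but its first base lie within the GENCODE gene, which begins at 95904691. *Car4* has the same 5 bases from position 3 of its RefSeq transcript. That match of *Car4*, at 84957756 to 84957760 of chromosome 11, lies before the GENCODE start of the gene at 84957786. Of the windows of *Slc4a4*, the upstream one holds CACGC, which is GCGTG on the opposite strand, 119 bases before the start site, and the other holds neither motif. The window of *Car12* holds neither. Such letters are common: ACGTG was in 19.6% and GCGTG in 32.4% of the 32851 windows of all genes, on either strand, and 43.8% held at least 1 of them.

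Per kilobase of exon, *Car8* had the highest mean level of the 7 genes in every group, and *Car12* and *Car14* had the lowest. In control tumors the mean level of *Car8* was 2.05 normalized CPM per kb, followed by *Car2* with 0.442, *Slc4a4* with 0.234, *Car9* with 0.209 and *Car4* with 0.187. The lowest tumor for *Car8*, at 1.47 CPM per kb, lay above the highest for *Car2*, at 0.592. Between *Car2*, *Slc4a4*, *Car9* and *Car4* the ranges over control tumors overlapped. In sunitinib-treated tumors the order was *Car8*, *Car2*, *Car9* and *Slc4a4*, and the ranges of all 4 overlapped. The place of *Car2* was that of tumor 6: without it the means were 3.97 CPM per kb for *Car8*, 0.551 for *Car9*, 0.422 for *Car2* and 0.394 for *Slc4a4*. In R+S-treated tumors the order was *Car8*, *Slc4a4*, *Car2* and *Car9*, and only *Car8*, at 3.53 CPM per kb or more, lay clear of its neighbor, at 1.34 or less.
Among 16 carbonic anhydrase genes ordered by their mean level per kb in control tumors, these 6 ranked 3, 7, 9, 10, 13 and 16. The gene with the highest level in all 3 groups was *Car10*, which encodes a catalytically inactive family member, with 6.28 ± 0.366 CPM per kb in control tumors (SD, n = 4). *Car8*, itself an inactive member known to bind the inositol trisphosphate receptor, ranked 3 of 16 in control tumors and 2 in both treated groups. *Car9* ranked 9 in control tumors, 6 with sunitinib (5 without tumor 6) and 10 with R+S.

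**Figure D1:**
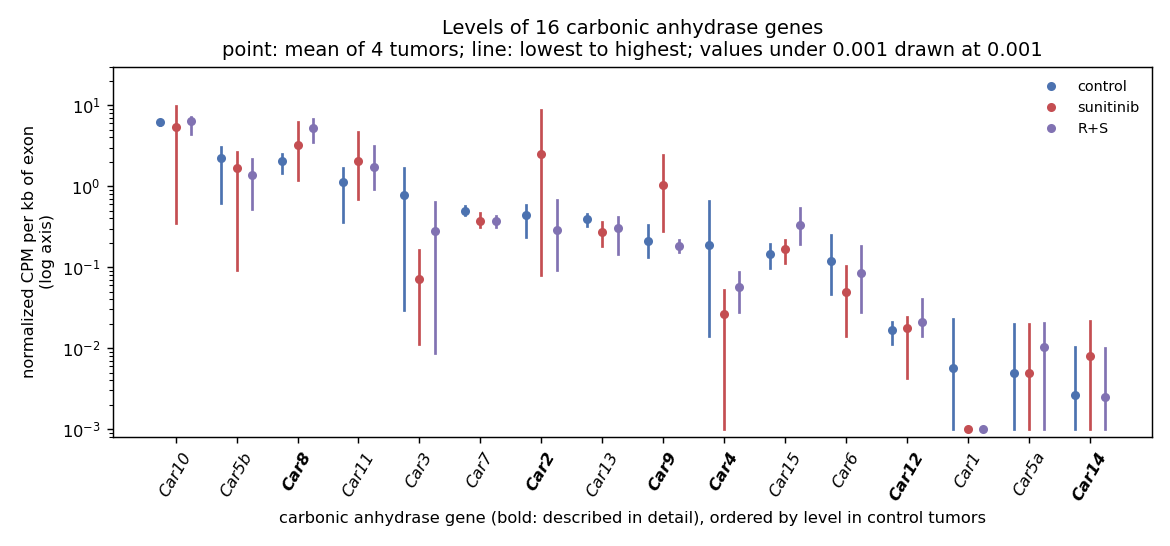
Normalized CPM per kilobase of exon on a log axis for 16 carbonic anhydrase genes, in order of their level in control tumors. Points are means of 4 tumors and lines run from the lowest to the highest tumor. *Car10* leads in every group, *Car8* ranks 3 of 16 in control tumors, and *Car12* and *Car14* are near the bottom.

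Of the 7 genes, 4 passed the filter on low counts: *Car2*, *Car8*, *Car9* and *Slc4a4*. The other 3 could not be tested. These 4 had at least 11 reads in every control tumor. The filter selects by level, so that counts over these 4 are not a result about all 7. At an adjusted p under 0.05 by edgeR's quasi-likelihood test, 0 of the 4 passed for sunitinib against control, 0 for R+S against control, and 1, *Car9*, for R+S against sunitinib. The shares of all 16645 tested genes called in these comparisons were 4.48%, 4.16% and 7.21%. At an unadjusted p under 0.05, 3, 1 and 2 of the 4 genes passed. By DESeq2, 1, 1 and 2 genes passed its adjusted threshold. The median log2 fold changes of the 4 genes were 2.19, 0.59 and -1.41, beside 0.03, 0.01 and -0.02 over all tested genes. Without sunitinib-treated tumor 6 the first was 0.85 and the last -0.07. The comparisons share their control, sunitinib-treated or R+S-treated tumors and are therefore not independent of each other.

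**Figure D2:**
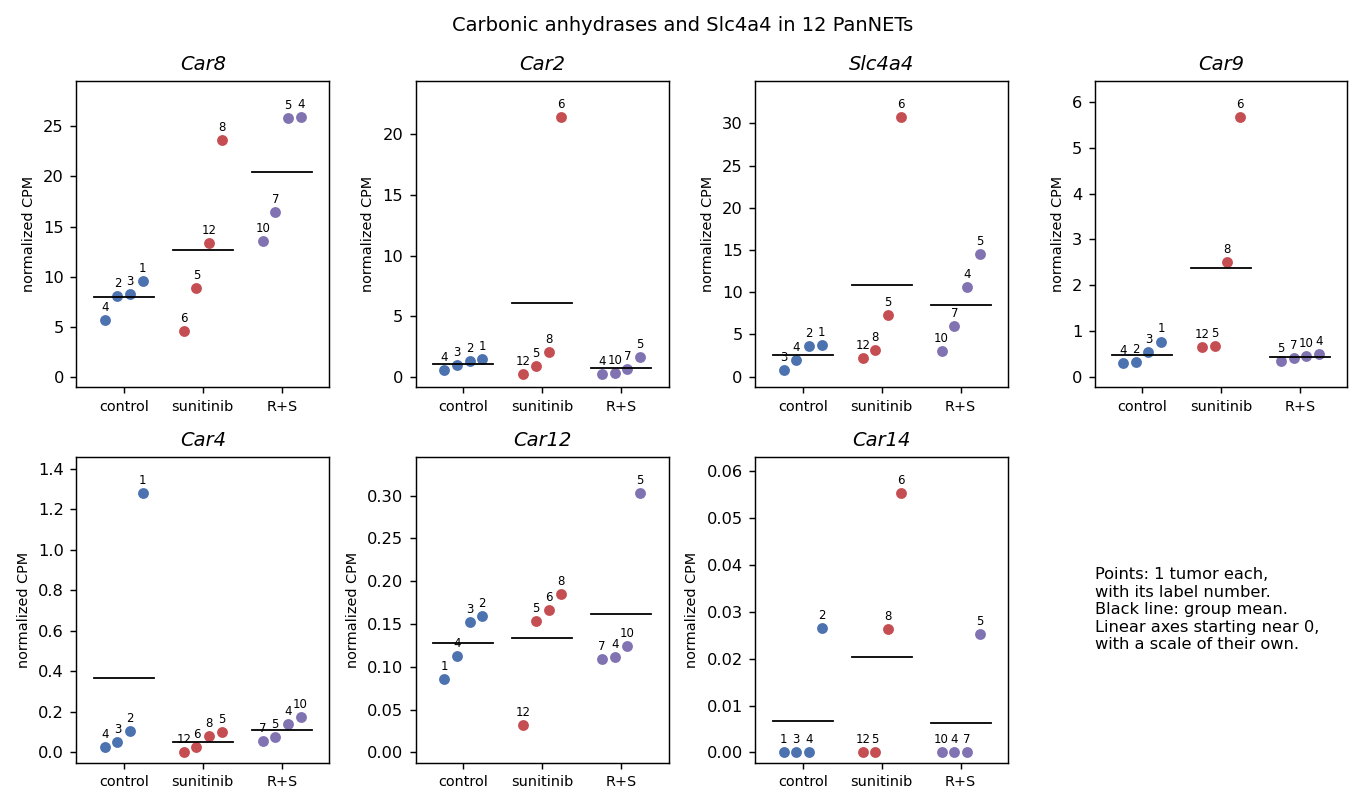
Normalized CPM of the 7 genes in each of 12 tumors (points, with the tumor's label number) and the mean of each group (black line), on linear axes with a scale for each gene. Sunitinib-treated tumor 6 is the highest tumor for *Car2*, *Slc4a4* and *Car9* and the lowest for *Car8*.

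*Car9* (ENSMUSG00000028463, chromosome 4 from 43506966 to 43513729, plus strand) encodes carbonic anhydrase 9, a membrane enzyme with its catalytic site outside the cell. It was lower in R+S-treated than in sunitinib-treated tumors, and the R+S-treated tumors were near the controls. With sunitinib it reached 5.67 normalized CPM in tumor 6 and 2.51 in tumor 8, against 0.663 in tumor 5 and 0.642 in tumor 12. With R+S, tumors 4, 10, 7 and 5 had 0.499, 0.446, 0.408 and 0.354. Control tumors 1, 3, 2 and 4 had 0.77, 0.533, 0.317 and 0.31. The high values with sunitinib were thus those of tumors 6 and 8, while tumors 5 and 12 lay within the range of the controls.
The counts behind these values were small, at 11 to 36 reads in control tumors, 14 to 18 in R+S-treated tumors and 20, 26, 95 and 205 in sunitinib-treated tumors 12, 5, 8 and 6. Group means were 2.37 ± 2.36 CPM with sunitinib, 0.427 ± 0.0615 with R+S and 0.483 ± 0.218 in control tumors (SD, n = 4 each).
Between R+S-treated and sunitinib-treated tumors *Car9* changed by -2.47 on the log2 scale (SE 0.66), with an adjusted p of 0.0457 by edgeR. All R+S-treated tumors lay below all sunitinib-treated tumors (p = 0.0286 by a two-sided exact permutation test, which cannot go lower with 4 against 4, and 0.3 after adjustment over 21 tests). Of all tested genes, 18.6% had groups that did not overlap in this comparison, and 4.58% were called lower. The call did not last under 10 of 16 alternatives. In these 16 the log2 fold change ran from -2.78 to -1.57, and the adjusted p from 0.00324 by DESeq2 to 0.26 by edgeR with the acinar score added. Without sunitinib-treated tumor 6 it was -1.57 (adjusted p = 0.0685 by edgeR), and without tumor 8 it was -2.43 (adjusted p = 0.0673 by edgeR). Leaving out any 1 of the 4 R+S-treated tumors also ended the call: by edgeR the adjusted p was 0.0927 without tumor 10, 0.101 without tumor 4, 0.129 without tumor 5 and 0.107 without tumor 7.

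**Figure D3:**
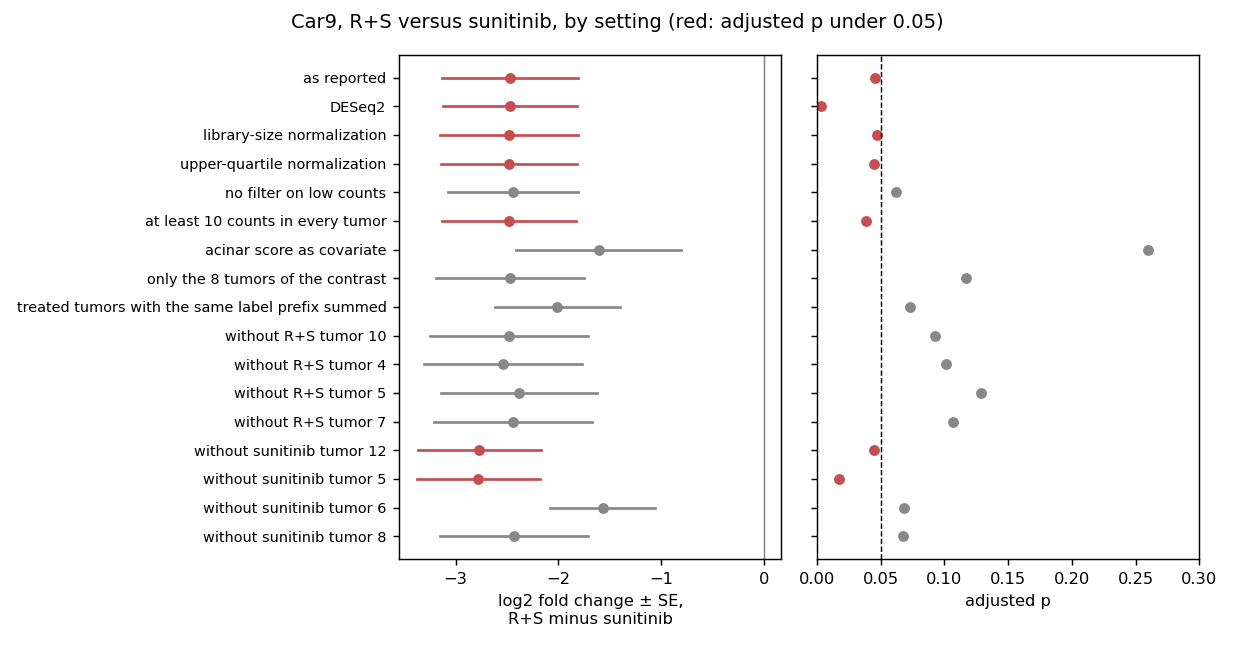
*Car9* in R+S-treated against sunitinib-treated tumors, as reported and under 16 alternatives. The left panel gives the log2 fold change ± SE and the right panel the adjusted p, with the threshold of 0.05 dashed. All log2 fold changes lie between -2.78 and -1.57, and the threshold is passed in the reported fit and 6 alternatives.

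Against control tumors, sunitinib gave *Car9* a log2 fold change of 2.28, with an SE of 0.65 and a 95% interval from 0.86 to 3.70, and it missed the threshold (adjusted p = 0.079 by edgeR). The groups overlapped (two-sided exact permutation test, p = 0.0857). By DESeq2 the same log2 fold change of 2.28 passed, with an adjusted p of 0.00864, and the fits without sunitinib-treated tumor 12 or 5 also passed. Without tumor 6 the log2 fold change was 1.38. Adding the acinar score, the mean log2 CPM of the 28 markers, to the fit turned it to -1.89 with an SE of 2.53 (adjusted p = 0.999 by edgeR). Since that score did not overlap between treated and control tumors, acinar content and treatment cannot be told apart in this comparison.
R+S-treated and control tumors differed by -0.19 on the log2 scale, with a 95% interval from -1.61 to 1.24 (adjusted p = 0.906 by edgeR). A fold change of 2 in either direction is within that interval.
A predicted gene, *Gm12454*, overlaps exons of *Car9* on the other strand. It had 19 to 42 reads in control tumors, 16 to 49 in sunitinib-treated and 24 to 62 in R+S-treated tumors, ranges that overlapped between the groups. Reads of an overlap are kept apart only if the counting used strand.
Genes of like profile were searched only among tested genes with a symbol, predicted ones left out, above a minimum mean level given below. In most tumors *Car9* itself lay under that level. Over the 12 tumors, the genes in this search whose profile was most like that of *Car9* were *Ildr2*, *Csdc2* and *Vill*. Their centered log2 CPM differed from that of *Car9* by 0.48, 0.50 and 0.51 (root mean square). Between R+S-treated and sunitinib-treated tumors their log2 fold changes were -1.88, -1.80 and -1.79, beside the -2.47 of *Car9*. These genes were picked for likeness over the same 12 tumors, so that fold changes of the same direction follow from the choice.

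*Car12* (ENSMUSG00000032373, chromosome 9 from 66713686 to 66766845, plus strand) encodes carbonic anhydrase 12, the other surface enzyme that is known as a HIF target. It was barely detected in any group and did not pass the filter. Its counts were 4 to 6 reads in control tumors, 1 to 7 in sunitinib-treated and 4 to 12 in R+S-treated tumors. The corresponding means were 0.127 ± 0.0345, 0.134 ± 0.0691 and 0.162 ± 0.0945 normalized CPM (SD, n = 4 each), which overlapped between all groups. In the tumors with the most *Car9*, sunitinib-treated tumors 6 and 8, *Car12* had 6 and 7 reads.
*Car14* (ENSMUSG00000038526, chromosome 3 from 95897768 to 95904691, minus strand), a further membrane-bound enzyme, had 5 reads in all 12 tumors together and was at 0 in 8 of them. A count of 0 allows up to 3 reads, which is 0.0642 to 0.0963 CPM depending on the tumor and covers counting error only. *Aph1a*, which overlaps its exons on the other strand, had 531 to 796 reads per tumor.
*Car4* (ENSMUSG00000000805, chromosome 11 from 84957786 to 84966044, plus strand) encodes a lipid-anchored surface enzyme known from capillary endothelium. It had 60 reads in control tumor 1 and 1 to 4 in the other 3 control tumors, 0 to 4 with sunitinib and 2 to 7 with R+S. Control tumor 1 alone set the control mean of 0.367 CPM. That tumor also had the highest acinar sum of the controls, 152 CPM against 42.6 to 68.9 in the others, the highest erythroid sum, 376 against 69 to 187, and the highest sum of other islet endocrine markers, 359 against 262 to 324. Its endothelial sum was the lowest of the controls (675 CPM, against 700 to 889). The part of these cells in the level of *Car4* was not tested. The endothelial sum of 14 markers was 78.8 to 119 CPM with sunitinib and 149 to 193 with R+S. Against control tumors, 13 of the 14 markers were called lower in each treated group, beside 2.55% and 2.61% of all tested genes. With so few reads, a difference in *Car4* was not detectable.

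*Car8* (ENSMUSG00000041261, chromosome 4 from 8143362 to 8239041, minus strand) was higher in every R+S-treated tumor than in every control tumor, but did not pass the threshold over all genes. R+S-treated tumors 4, 5, 7 and 10 had 25.9, 25.8, 16.4 and 13.6 normalized CPM. Control tumors 1, 3, 2 and 4 had 9.6, 8.29, 8.09 and 5.67. Every value with R+S thus lay above the control range.
The means were 20.4 ± 6.37 and 7.91 ± 1.64 CPM (SD, n = 4 each), and the log2 fold change was 1.37 with an SE of 0.42 (adjusted p = 0.0929 by edgeR, unadjusted 0.00722). By exact permutation, two-sided, p was 0.0286, and 0.3 after adjustment over 21 tests. Non-overlap was common in this comparison, at 23.5% of all tested genes, so that 1 of 4 is near the background. The adjusted p was 0.0104 by edgeR with only the 8 tumors of the comparison, 0.0212 by DESeq2 and 0.0228 by edgeR with treated tumors of 1 prefix summed. The 4 control tumors, which share a prefix, stayed apart in that fit, so it does not cover dependence between them. Leaving out each tumor kept the log2 fold change between 1.23 and 1.52 and did not pass the threshold in any of 8 fits. Beta-cell marker sums overlapped between these groups, at 42400 to 68200 CPM with R+S and 38600 to 62000 in control tumors.
With sunitinib alone *Car8* was spread widely, and tumors 8, 12, 5 and 6 had 23.6, 13.4, 8.85 and 4.61 CPM. The lowest value was that of the tumor with few beta-cell transcripts, and 2 of the 4 tumors lay above all controls. The log2 fold change against control tumors was 0.67 (95% interval -0.24 to 1.58, adjusted p = 0.398 by edgeR), and it was 0.95 without tumor 6 and 0.18 without tumor 8. R+S-treated and sunitinib-treated tumors differed by 0.70 (95% interval -0.21 to 1.60, adjusted p = 0.274 by edgeR), by 0.42 without sunitinib-treated tumor 6 (adjusted p = 0.405 by edgeR) and by 1.19 without tumor 8 (adjusted p = 0.0755 by edgeR).

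*Car2* (ENSMUSG00000027562, chromosome 3 from 14886273 to 14900770, plus strand) encodes the cytosolic enzyme of ducts, red cells and other tissues. Its mean with sunitinib was that of 1 tumor. Sunitinib-treated tumor 6 had 21.4 normalized CPM from 774 reads, and tumors 8, 5 and 12 had 2.01, 0.868 and 0.193. Control tumors had 0.564 to 1.43 CPM. R+S-treated tumors 5, 7, 10 and 4 had 1.62, 0.653, 0.297 and 0.222, so that both treated groups reached below the control range.
Sunitinib-treated tumors differed from controls by 2.51 on the log2 scale with an SE of 1.15 (adjusted p = 0.255 by edgeR). Without tumor 6 it was -0.06, and the mean with sunitinib was 1.02 ± 0.916 CPM (SD, n = 3) against 1.07 ± 0.386 in control tumors (SD, n = 4). R+S-treated and sunitinib-treated tumors differed by -3.12 (adjusted p = 0.106 by edgeR, 0.0187 by DESeq2), and by -0.55 without tumor 6. R+S-treated and control tumors differed by -0.62 (95% interval -3.07 to 1.83, adjusted p = 0.802 by edgeR).
*Slc4a4* (ENSMUSG00000060961, chromosome 5 from 88886818 to 89239653, plus strand), whose product carries sodium and bicarbonate together across the membrane, was also highest in tumor 6. It had 30.7 normalized CPM there and 7.35, 3.22 and 2.21 in sunitinib-treated tumors 5, 8 and 12. R+S-treated tumors 5, 4, 7 and 10 had 14.5, 10.6, 5.96 and 3.09. Control tumors had 0.786 to 3.76 CPM, and 3 of the 4 R+S-treated tumors lay above all of them.
Against control tumors, *Slc4a4* differed by 2.10 on the log2 scale with sunitinib (SE 0.83, adjusted p = 0.187 by edgeR) and by 1.75 with R+S (SE 0.82, adjusted p = 0.257 by edgeR). The former was 0.75 without tumor 6. Against sunitinib-treated tumors, R+S gave -0.35 (95% interval -2.08 to 1.38, adjusted p = 0.787 by edgeR), and 1.00 without tumor 6.
In tumor 6 the acinar sum was the highest of all tumors, at 48400 CPM, against 13300 to 39000 in the other sunitinib-treated tumors. Its duct-marker sum of 498 CPM, over 14 markers, was the lowest of its group, where the others had 678 to 981. *Krt7* weighs much in this sum, at 364 to 479 CPM in control tumors and 38.1 to 454 with sunitinib. By mean log2 CPM, which lets abundant markers count less, the duct markers stood at 3.80 in tumor 6, against 2.81 to 3.97 in the other 3. Against control tumors, 4 of 13 testable duct markers were called higher by edgeR with sunitinib and 2 with R+S, and 0 lower. Of all tested genes, 1.93% and 1.55% were called higher. Without overlap, 4 and 6 of the duct markers were higher, beside 10.9% and 23.5% of all genes in either direction. Tumor 6 also had the highest sum of 10 other islet endocrine markers of all 12 tumors, 665 CPM against 94.1 to 429. *Irx2* made up 340 CPM of that sum, against 2.79 to 20.9 CPM in control tumors. The highest *Gcg* with sunitinib, 379 CPM, was in another tumor. The myeloid sum of tumor 6 was the lowest, 287 CPM against 414 to 873. The part of these cells in the levels of *Car2* and *Slc4a4* was not tested. In the fit with the acinar score, the differences of *Car2* and *Slc4a4* between sunitinib-treated and control tumors turned to -2.81 and -2.98, with SEs of 5.56 and 3.60 (adjusted p = 0.999 for each by edgeR).

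**Figure D4:**
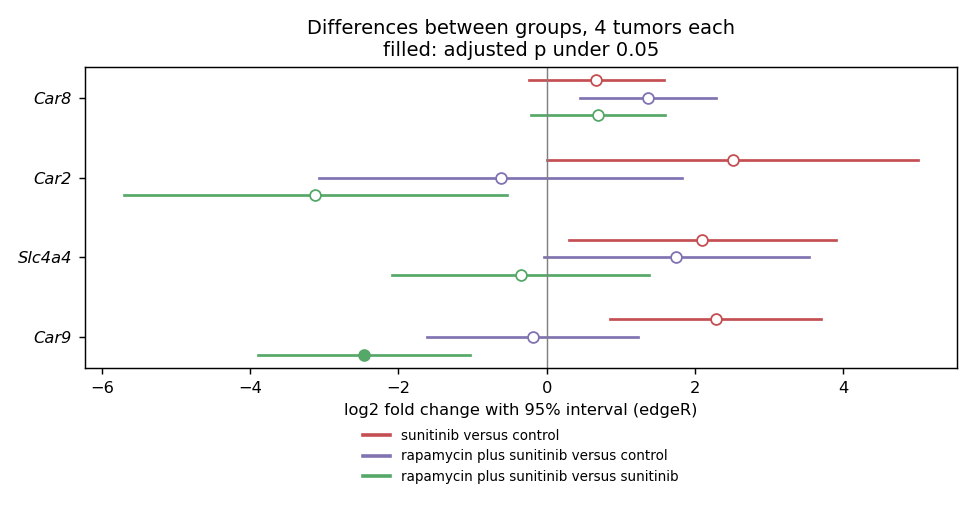
Log2 fold changes (points) with 95% intervals (lines) from edgeR for the 4 genes that could be tested, in the 3 comparisons. Only *Car9* in R+S-treated against sunitinib-treated tumors, at -2.47, is filled as past the adjusted threshold.

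The other genes of acid and bicarbonate handling were read from lists of 82 genes, of which 61 passed the filter. By edgeR 0 were called higher and 3 lower with sunitinib against control, 0 and 2 with R+S against control, and 1 and 2 with R+S against sunitinib. At an unadjusted p under 0.05, 6, 3 and 5 were higher, and DESeq2 called 4, 0 and 2 higher. Their median log2 fold changes were -0.02, -0.07 and -0.07. The count of 3 for R+S against sunitinib was 0 without any 1 of the R+S-treated tumors or sunitinib-treated tumor 12, and 6 without sunitinib-treated tumor 5. For sunitinib against control it was 1 without control tumor 1 or 3, and for R+S against control 1 without control tumor 3 or R+S-treated tumor 5 or 7. The shares of all genes called higher were 1.93%, 1.55% and 2.63%, and the shares called lower were 2.55%, 2.61% and 4.58%.
Of the other carbonic anhydrases, 7 of 10 could be tested and 0 were called in any comparison, by edgeR or by DESeq2, with 1 at an unadjusted p under 0.05 in each. The abundant *Car10* had 36.6 to 42 normalized CPM in control tumors and 28.4 to 45.2 with R+S. Sunitinib-treated tumors 8, 12, 5 and 6 had 62.6, 47, 24.4 and 2.27. *Car5b*, the mitochondrial enzyme, was likewise lowest in tumor 6, at 0.58 CPM, where the other 11 tumors had 3.28 to 19.4. *Car10*, *Car5b* and *Car8* were thus at their lowest in the tumor in which *Car2*, *Car9* and *Slc4a4* were at their highest.
Among bicarbonate and anion exchangers, 11 of 18 could be tested. *Slc26a2*, a sulfate transporter, was higher in R+S-treated than in sunitinib-treated tumors (35.7 ± 7.32 against 18.3 ± 5.82 CPM, SD, n = 4 each), by 0.97 on the log2 scale (adjusted p = 0.037 by edgeR), and passed in 8 of 16 alternatives. *Slc26a11* was lower in that comparison, at 4.07 ± 0.163 against 6.94 ± 1.33 CPM (SD, n = 4 each), with a difference of -0.77 on the log2 scale (adjusted p = 0.0349 by edgeR), and passed in 7 of 16.
Of the 11 sodium-proton exchangers and regulators that could be tested, *Slc9a3r2*, a scaffold protein gene, was lower in both treated groups. Control tumors had 31.7 to 42.9 CPM, sunitinib-treated tumors 13.3 to 27.6 and R+S-treated tumors 13.5 to 20.4, and the log2 fold changes were -1.04 and -1.18 (adjusted p = 0.0249 and 0.0156 by edgeR). They passed in 8 and 12 of 16 alternatives.
Of 24 testable proton pump genes, 1 was called. *Atp6v0d2*, a subunit of the vacuolar proton pump known from osteoclasts and macrophages, was lower in R+S-treated than in sunitinib-treated tumors by -2.75 on the log2 scale (SE 0.68, adjusted p = 0.0376 by edgeR), and passed in 6 of 16 alternatives. Sunitinib-treated tumors 12, 5, 8 and 6 had 11.8, 6, 5.17 and 2.63 CPM, while R+S-treated tumors had 0.297 to 1.66 and controls 0.317 to 2.44. The groups of this comparison did not overlap, which was so for 2 of the 24 proton pump genes and 18.6% of all tested genes. The highest tumor was tumor 12, in which *Car9* had 0.642 CPM. The sum of 12 myeloid markers was 287 to 849 CPM with sunitinib and 414 to 614 with R+S, and its part in the difference was not tested.
Of 8 testable acid sensor genes, *Gpr4*, a proton-sensing receptor known from endothelium, was lower with sunitinib (log2 fold change -3.18, adjusted p = 0.000499 by edgeR) and with R+S (-2.28, adjusted p = 0.00523 by edgeR) than in control tumors. Its values were 3.1 to 4.97 CPM in control tumors, 0.257 to 0.638 with sunitinib and 0.435 to 0.999 with R+S, beside the lower endothelial sums given above. Both calls held in 14 of 15 alternatives and were lost with the acinar score added. *Gpr65*, a proton-sensing receptor of leukocytes, was lower with sunitinib (log2 fold change -1.44, adjusted p = 0.0354 by edgeR), at 1.44 to 4.96 CPM against 7.25 to 11.5 in control tumors, and passed in 9 of 16 alternatives. The myeloid sum was 622 to 873 CPM in control tumors. Of the 12 myeloid markers, 2 were called lower and 0 higher by edgeR with sunitinib against control, beside 2.55% of all genes called lower. In this comparison 5 of the 12 did not overlap, all lower, beside 10.9% of all genes in either direction. The part of endothelial and myeloid cells in the differences of *Gpr4* and *Gpr65* was not tested.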

How the data were processed

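Per the labels, poly(A) RNA of 12 tumors was made into stranded TruSeq libraries. The submitters' processing notes name cutadapt 1.2.1, TopHat2 2.0.9, HTSeq 0.5.4p3 and GRCm38. The strand setting of the counting is not given in the sources used here. The authors deposited 1 table of raw counts per tumor, with 38924 gene identifiers and 5 summary lines of htseq-count that were left out. Reads aligned to several places are not in the counts.

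Symbols, exon lengths and coordinates came from GENCODE M21 (GRCm38), which paired 37607 identifiers with a symbol. TMM factors were computed, and 1 fit of all 12 tumors gave quasi-likelihood F-tests (edgeR 4.0.16 with limma 3.58.1 in R 4.3.3, robust estimation). Genes were kept by filterByExpr (minimum count 10, minimum total count 15), which left 16645 genes. The Benjamini-Hochberg adjustment ran over these genes in each contrast, and the threshold was 0.05. Standard errors are the absolute log2 fold change divided by the square root of F. Normalized CPM are counts scaled by the TMM-adjusted library size. Single members were also compared on log2 CPM (prior count 2) by exact permutation, two-sided, over the 70 arrangements of 4 against 4, with adjustment over 21 tests. Counts of tumors of 1 group differed by more than sampling noise, with a chi-square per degree of freedom of at least 22.8 in every pair. The fit was tested on simulated data. The alternatives were DESeq2 1.42.0, other normalizations, filters and sample sets, an acinar covariate, treated tumors summed by label prefix, and each tumor left out. Reading these alternatives per gene for the other pH genes was added after the data were seen.

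The members and the gene lists were chosen with earlier results of these data known. All 7 members are named. Other pH genes are named where they passed the threshold at a mean of at least 1 CPM in 1 group of the contrast, and any further gene named was chosen after its values were seen. Genes with a similar profile are the 3 with the smallest root-mean-square difference of centered log2 CPM from a member that passed the threshold. They were sought among tested genes with a symbol and a mean log2 CPM no lower than that of 1 CPM. Predicted genes (Gm or Rik symbols) were left out.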

Additional observations from a re-analysis of the deposited data

Results flagged for a closer look

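The 7 genes were checked in 21 groups of 4 tumors for a tumor whose gap to the nearest other was above the critical share of the range, on log2 CPM with a prior count of 2. Such a tumor was found in 4 groups, all of genes with few reads, where chance alone flags about 1 in 20 groups of continuous values. *Car12* had 0.0321 normalized CPM in sunitinib-treated tumor 12, from 1 read, where the others had 0.153 to 0.185. It had 0.303 CPM in R+S-treated tumor 5, from 12 reads, where the others had 0.109 to 0.124. *Car14* had 0.0265 CPM in control tumor 2 and 0.0253 in R+S-treated tumor 5, from 1 read each. The other 3 tumors of each group were at 0, so that any read met the criterion and the chance rate does not apply to them. On linear CPM, a scale chosen after seeing the data, 5 groups had such a tumor. These included *Car2* in sunitinib-treated tumor 6 (21.4 CPM, the others 0.193 to 2.01) and *Car4* in control tumor 1 (1.28 CPM, the others 0.0282 to 0.106), and no longer *Car12* in sunitinib-treated tumor 12.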

How the results depend on the processing

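For the 4 genes tested in 3 comparisons, 189 alternative log2 fold changes were computed, of which 163 kept the direction and the side of the threshold, 9 reversed, 10 lost the threshold and 7 passed it. The 10 that lost it all concern *Car9* between R+S-treated and sunitinib-treated tumors. Adding the acinar score turned the log2 fold changes against control tumors to -2.81 (*Car2*), -1.89 (*Car9*) and -2.98 (*Slc4a4*) with sunitinib and to -2.28 (*Slc4a4*) with R+S, and that of *Slc4a4* between R+S and sunitinib to 0.70. The last was 0.04 with tumors of 1 prefix summed. With each tumor left out, *Car2* with sunitinib ran from -0.06 to 2.91, *Car9* with R+S against control tumors from -0.34 to 0.14 (without control tumor 1), and *Slc4a4* between R+S and sunitinib from -0.73 to 1.00. The cause of these changes was not tested. For the 8 calls of other pH genes 0 of the alternatives reversed.

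Of the 7 genes, the number called with sunitinib against control tumors was 0, and 1 by DESeq2 (3 at an unadjusted p under 0.05 by edgeR). With R+S against control tumors it was 0, and 1 by DESeq2, with only the 8 tumors compared and with treated tumors summed by prefix (1 at an unadjusted p under 0.05 by edgeR). The control tumors were not summed. Between R+S and sunitinib it was 1, which became 2 by DESeq2 and 0 with no filter, with the acinar score, with only the 8 tumors and with prefixes summed. With each tumor left out these numbers ran from 0 to 1, 0 to 0 and 0 to 1. The numbers of other pH genes, 3, 2 and 3, became 7, 2 and 5 by DESeq2, 0, 0 and 0 with the acinar score, 1, 4 and 0 with only the 8 tumors, and ran from 1 to 4, 1 to 2 and 0 to 6 with each tumor left out. Without a filter the first became 4 and the last 0, the latter with 15 at an unadjusted p under 0.05. With at least 10 counts in every tumor the first became 2 and the second 1. Then 52 of these genes could be tested, and *Gpr4* was not among them. The exact permutation test reached its smallest p in 2 of 21 comparisons on every scale tried. No paired analysis was made, because the labels name no pairs of tumors between groups. *Car4*, *Car12* and *Car14* are limited by depth, at most 60 reads in any tumor.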
